A study of Mus musculus with 20 samples.

Results

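The genes of glycolysis, of glycogen storage and breakdown, and of the hexosamine and pentose phosphate branches of glucose metabolism were described in hearts with and without light chain (AL) amyloid. The members were 43 gene symbols, from the glucose transporters to transketolase, found by name among the 25308 entries of the count table. They occupied 45 entries, because Aldoa and Pygm are each listed under 2 gene identifiers, and all 43 symbols had an entry among the 14477 that passed the filter on low counts. RNA from the apex of the heart had been sequenced in 20 mice of 3 groups. AL mice (n = 9) were λS-DH mice that had been induced and carried amyloid. They have the gene of a human λS light chain, from a patient with AL amyloidosis, inserted at the mouse Ig kappa locus, in animals that are otherwise DH-LMP2A. LS mice (n = 4) had the same genotype without induction and without deposits. Ctrl mice (n = 7) were DH-LMP2A mice without the human gene, so that the DH-LMP2A alleles, which let plasma cells arise that lack Ig heavy chains, were shared by all 3 groups. The light chain is made by plasma cells and reaches the heart through the blood, and induction, according to the study's methods, was an intravenous injection of the recombinant variable domain of this light chain, as sonicated fibrils or in soluble form. The ages and sexes of single mice are not given in the labels, and the study used mice of both sexes and names the Ctrl mice as age-matched. Xist, an RNA of female cells, was at 185 to 400 CPM in AL2 to AL4, LS2, LS3 and Ctrl1 to Ctrl3. It was at most 6.4 CPM in the other mice, which include all mice of the second sequencing run.

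The adult heart burns mostly fatty acids and keeps glycolysis as a fast, oxygen-independent reserve. Glucose enters the cardiomyocyte through GLUT4 and GLUT1, is trapped by hexokinase, and is committed to glycolysis by phosphofructokinase, whose activity is set by the bifunctional PFKFB enzymes. Glucose 6-phosphate can also be stored as glycogen, sent through the pentose phosphate pathway for NADPH and ribose, or, after conversion to fructose 6-phosphate, be used by GFPT for the amino sugars with which OGT modifies proteins. Many steps have a muscle and a more widely expressed isozyme encoded by different genes.

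Library totals ranged from 7867642 to 62668146 estimated counts, and the 5 libraries of the second sequencing run (AL8, AL9 and Ctrl5 to Ctrl7) were the shallow ones, with at most 11794615. All LS mice were in the first run, so the comparison with LS mice rests on the first run and on the run difference estimated from AL and Ctrl mice. Values in single mice are given as CPM, counts scaled to the TMM-adjusted library size, and 3 counts correspond to 0.0474 to 0.356 CPM, a limit that covers counting error only. Cardiomyocyte markers summed to 65030 to 98760 CPM in AL mice, 80490 to 89040 CPM in LS mice and 76750 to 98710 CPM in Ctrl mice. The sum was below every LS mouse in 8 of 9 AL mice and below every Ctrl mouse in 6 of 9, while AL8 had the highest sum. In run 1 the medians were 73770 CPM in AL, 85190 CPM in LS and 80155 CPM in Ctrl mice. Of the 12 markers 2, Pln and Myh6, were lower in AL than in Ctrl mice. The part of this lower sum in the values of the pathway genes was not tested. Skeletal muscle markers, in most part Acta1, summed to 223 to 1095 CPM in AL mice, above all LS mice (114 to 202 CPM) and overlapping with Ctrl mice (96.7 to 461 CPM). Of the 10, 6 were tested and 3 (Tnni2, Mybpc2 and Tnnt3) were higher in AL than in Ctrl mice, Myh1, Myh2, Myh4 and Pvalb had too few counts, and their part in the values of the muscle isozymes was not tested. AL9 stood apart by its summed fibroblast markers, 4622 CPM against at most 1619 CPM in the other mice. In whole tissue, fewer cells of a type and less RNA per cell cannot be told apart. The sequencing run is the one batch that the labels give.

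On a scale that allows genes to be compared, RPKM (CPM per kb of exon, lengths from GENCODE M21), the muscle isozymes and the abundant single-gene enzymes led the pathway. Over all 20 mice the median level was 724 RPKM for Ldhb, the heart form of lactate dehydrogenase, 720 RPKM for Gapdh, 713 RPKM for Eno3, the muscle enolase, and 683 RPKM for Aldoa, the muscle aldolase. Pgam2, the muscle phosphoglycerate mutase, followed at 362 RPKM, and Pfkm, the muscle phosphofructokinase, at 284 RPKM. Levels of Ldhb, Gapdh, Eno3 and Aldoa lay within one another's spread over mice. Txnip, which restrains glucose uptake, stood at 273 RPKM, ahead of the muscle glycogen phosphorylase Pygm (250 RPKM, both entries summed) and Tpi1 (247 RPKM). The SD of Txnip was 87.4 RPKM in AL, 75.2 RPKM in LS and 129 RPKM in Ctrl mice, so this order lay within its spread. At the other end were Pfkfb3 (1.48 RPKM), Pfkfb1 (2.17 RPKM), G6pdx (2.42 RPKM) and Tkt (2.44 RPKM), the last 2 being enzymes of the pentose phosphate pathway. The brain-type aldolase Aldoc was at the limit of detection, with 0.0408 RPKM and 0 to 15 counts in a mouse.

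**Figure D1:**
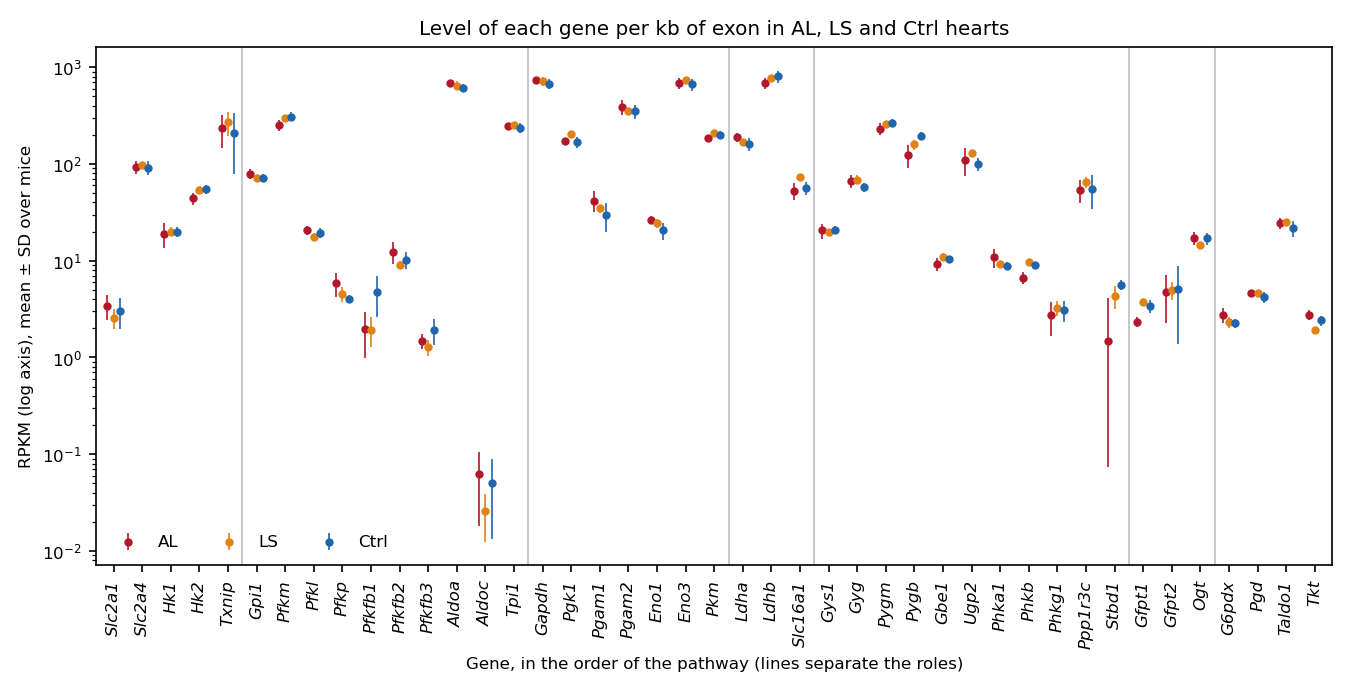
Level of each of the 43 genes in RPKM on a log axis, as the mean of the AL (n = 9), LS (n = 4) and Ctrl (n = 7) mice with bars of 1 SD, in which a lower bar that would reach 0 is drawn short. Genes stand in pathway order, from Ldhb and Gapdh at 724 and 720 RPKM (medians over mice) to Aldoc at 0.0408 RPKM, and for most genes the points of the 3 groups lie close together.

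Groups were tested with edgeR (quasi-likelihood fit, terms for group and run), and a gene passed at an FDR (Benjamini-Hochberg, over all 14477 genes) under 0.05. Between AL and Ctrl mice, 14 of the 43 genes passed. The 7 higher in AL mice were Gpi1, Pfkp, Aldoa, Pgam1, Eno1, G6pdx and Tkt, and the 7 lower were Hk2, Pfkm, Pfkfb1, Pygb, Phkb, Stbd1 and Gfpt1. These shares, 16.3% higher and 16.3% lower, stand beside 10.7% and 15.4% of all genes tested, and the median log2FC of the 43 genes was 0.02 beside 0.01 for all genes. With a size of at least 0.58 on the log2 scale also required, 4 genes were left (Pfkfb1, Pygb, Stbd1 and Gfpt1, all lower), or 9.3% beside 7.81% of all genes. A further 7 genes had an unadjusted p under 0.05 without passing. With those that passed, 21 of the 43 genes had such a p, beside 5624 of all 14477 genes. The shares of the members were close to those of all genes and the values that follow are those of single genes. With ComBat-seq correction in place of the run term 4 of the members passed, beside 777 of all 14531 genes tested there. Without a run term 8 did, beside 2183 of all 14477 genes.

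Between AL and LS mice, which share the human light chain gene and differ in induction and deposits, 9 genes passed. Tkt was higher (2.33% of the genes beside 9.78% of all genes), and 8 were lower (18.6% beside 13.6%), namely Hk2, Pfkm, Slc16a1, Pygm, Pygb, Phkb, Stbd1 and Gfpt1. Stbd1 and Gfpt1 also changed by at least 0.58, which is 4.65% of the genes beside 8.9% of all genes. Between LS and Ctrl mice 0 genes passed, where 0.0207% of all genes did, and the lowest FDR among the members was 0.692 for Pfkfb1. In that comparison 4 of the 43 genes had an unadjusted p under 0.05, beside 860 of all 14477 genes. DESeq2 also called 0 of the members, beside 21 of all genes. For AL against LS mice 2 of the members passed with ComBat-seq, beside 642 of all 14531 genes, and 4 without a run term, beside 2368 of all 14477. The contrasts with LS and with Ctrl mice share the AL mice, so the values are given side by side and not as support for each other.

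**Figure D2:**
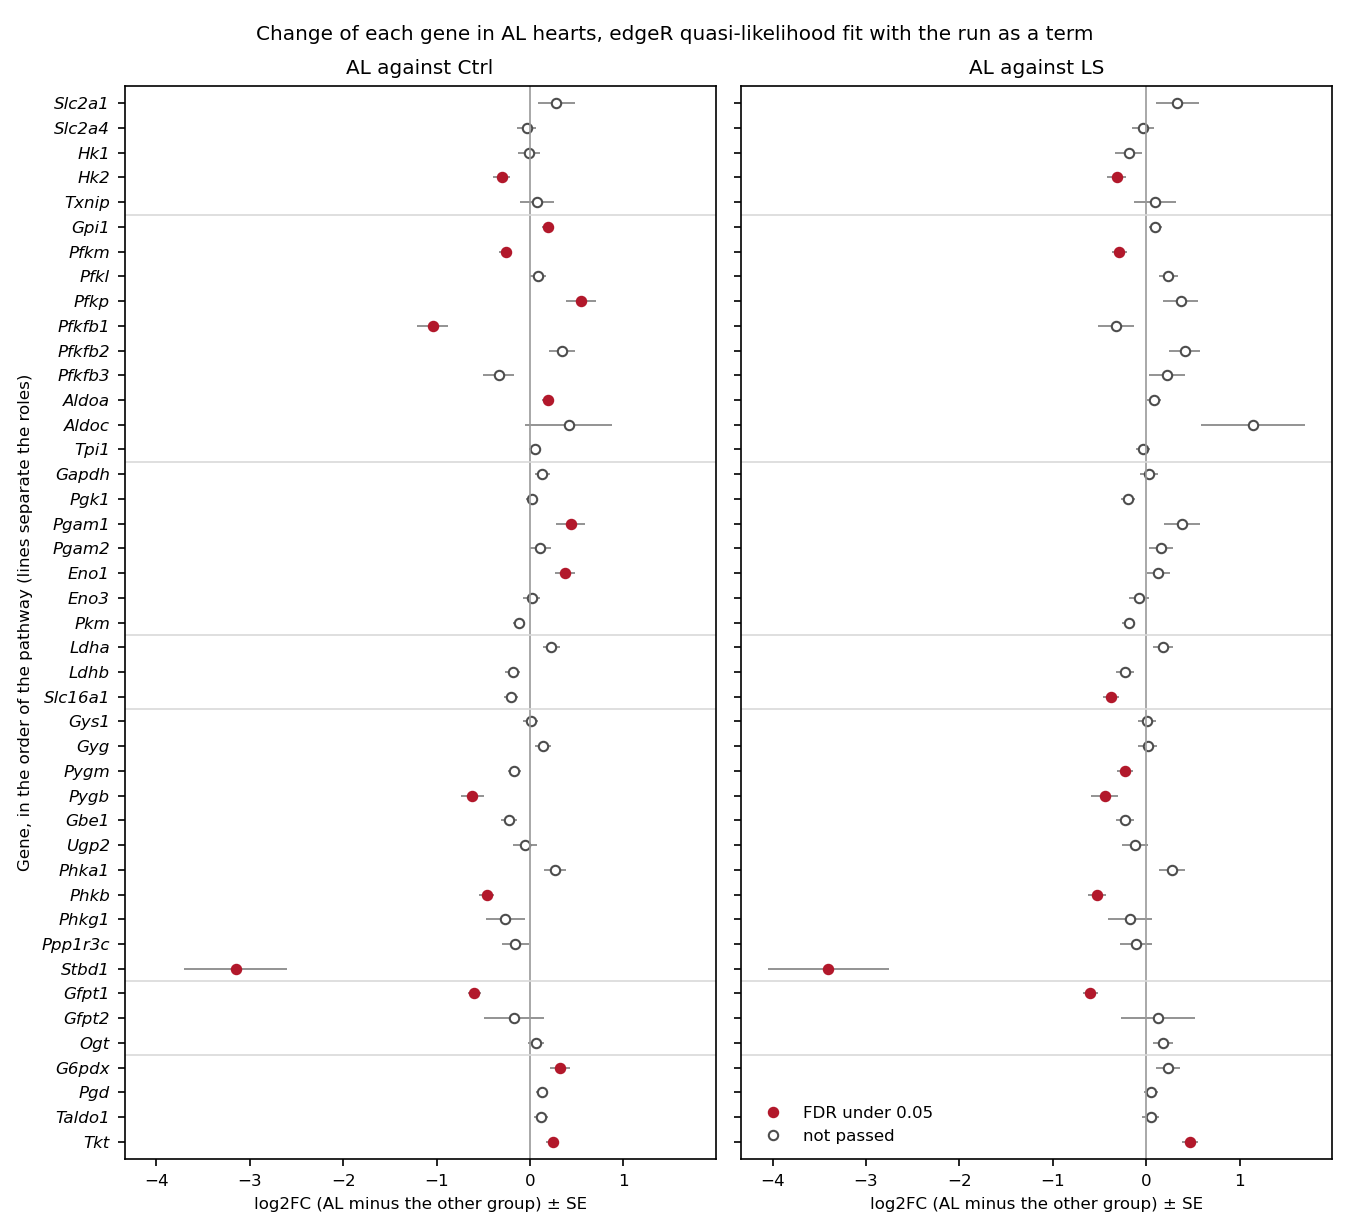
log2FC with bars of 1 SE for each of the 43 genes in AL against Ctrl mice (left) and AL against LS mice (right), with filled points for an FDR under 0.05 and open points for the others. Of the filled points 14 are on the left and 9 on the right, Stbd1 lies farthest from 0 in both (-3.15 and -3.41), and most other points lie within 0.7 of 0.

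The genes that passed in both contrasts were Hk2, Pfkm, Pygb, Phkb, Stbd1 and Gfpt1, which were lower in AL mice, and Tkt, which was higher. Since the contrasts share the AL mice, some overlap is given by the design. The share of all genes that passed in both was not computed, so the number of these genes is not a result about the members. Promoter sequences of these genes are shown because they passed in both contrasts and because the E-box and the core of the hypoxia response element can be looked for in them. A whole carbohydrate response element was not searched for. Each runs from 250 bases before to 50 bases after a start of transcription in RefSeq (GRCm38.p6), 5′ to 3′ on the strand of the gene, in lower case with capitals for CACGTG (the E-box) and for ACGTG and GCGTG (cores of the hypoxia response element), both on either strand. For Pfkm, which has 4 listed starts, the one with an E-box was picked for display, so its motifs are given by that choice.
Hk2, chr6:82774405-82774704, minus strand: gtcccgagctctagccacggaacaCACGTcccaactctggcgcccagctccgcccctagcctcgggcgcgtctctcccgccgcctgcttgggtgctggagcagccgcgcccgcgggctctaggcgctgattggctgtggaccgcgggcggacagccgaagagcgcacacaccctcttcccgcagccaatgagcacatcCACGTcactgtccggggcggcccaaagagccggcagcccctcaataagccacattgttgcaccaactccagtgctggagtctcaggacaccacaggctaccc
Pfkm, chr15:98092339-98092638, plus strand: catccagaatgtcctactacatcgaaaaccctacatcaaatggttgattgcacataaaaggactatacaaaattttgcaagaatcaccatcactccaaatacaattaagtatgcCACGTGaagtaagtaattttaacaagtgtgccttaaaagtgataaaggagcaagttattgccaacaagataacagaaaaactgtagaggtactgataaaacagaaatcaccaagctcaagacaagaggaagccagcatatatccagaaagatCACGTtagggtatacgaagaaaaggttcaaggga
Pygb, chr2:150786546-150786845, plus strand: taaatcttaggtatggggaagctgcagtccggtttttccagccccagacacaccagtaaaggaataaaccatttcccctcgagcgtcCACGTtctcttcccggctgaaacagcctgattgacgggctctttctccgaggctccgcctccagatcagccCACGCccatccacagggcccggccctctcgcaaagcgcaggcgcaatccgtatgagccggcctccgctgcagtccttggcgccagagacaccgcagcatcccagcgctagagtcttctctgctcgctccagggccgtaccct
Phkb, chr8:85840738-85841037, plus strand: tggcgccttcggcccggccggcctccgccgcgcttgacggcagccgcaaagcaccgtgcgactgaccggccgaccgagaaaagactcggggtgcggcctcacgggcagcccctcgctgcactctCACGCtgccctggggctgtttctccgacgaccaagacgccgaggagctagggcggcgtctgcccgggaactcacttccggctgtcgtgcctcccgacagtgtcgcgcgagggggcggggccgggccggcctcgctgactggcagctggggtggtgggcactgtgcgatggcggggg
Stbd1, chr5:92602801-92603100, plus strand: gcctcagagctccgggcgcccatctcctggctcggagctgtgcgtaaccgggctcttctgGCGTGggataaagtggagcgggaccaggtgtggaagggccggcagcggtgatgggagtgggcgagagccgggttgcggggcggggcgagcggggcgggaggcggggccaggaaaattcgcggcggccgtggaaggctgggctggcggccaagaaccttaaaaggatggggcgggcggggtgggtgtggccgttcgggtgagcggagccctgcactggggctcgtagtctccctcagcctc
Gfpt1, chr6:87042596-87042895, plus strand: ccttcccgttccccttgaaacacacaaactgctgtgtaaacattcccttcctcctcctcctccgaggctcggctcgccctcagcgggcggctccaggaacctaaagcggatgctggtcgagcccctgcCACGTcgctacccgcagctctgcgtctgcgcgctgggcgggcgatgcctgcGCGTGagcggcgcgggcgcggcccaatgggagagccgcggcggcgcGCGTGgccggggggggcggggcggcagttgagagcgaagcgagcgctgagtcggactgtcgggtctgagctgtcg
Tkt, chr14:30548881-30549180, plus strand: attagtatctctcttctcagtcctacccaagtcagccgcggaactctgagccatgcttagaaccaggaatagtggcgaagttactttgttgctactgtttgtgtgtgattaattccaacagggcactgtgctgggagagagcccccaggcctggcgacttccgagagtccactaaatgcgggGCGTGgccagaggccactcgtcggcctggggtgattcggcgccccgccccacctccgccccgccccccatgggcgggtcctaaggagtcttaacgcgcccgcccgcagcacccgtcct
The E-box holds an ACGTG core in itself, so the 2 motifs overlap. Apart from the picked Pfkm start, 0 of the promoters shown held an E-box, and 0 of the other 3 starts of Pfkm did. It was found in 11.3% of the 62 promoters of the 42 member symbols matched, beside 7.15% of all 32851 promoters of this length. Its member promoters belonged to Gyg, Ldha, Pfkfb2, Pfkfb3, Pfkm, Ppp1r3c and Slc16a1. An ACGTG or GCGTG core stood in the promoters shown of the other 6 genes and in 2 of the other 3 starts of Pfkm. Counting every listed start, it was found in 72.6% of the member promoters and 43.8% of all promoters, in 69.2% of the promoters of the genes lower in AL than in Ctrl mice, and in 81.8% of those of the genes higher. Genes of both directions thus held it at like shares. The searched MEF2 site and a site for estrogen-related receptors were in 0 member promoters, and in 0.164% and 0.423% of all promoters. A match is a stretch of letters in this window and says nothing of binding.

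Glucose uptake and its first step changed little apart from Hk2. This gene (ENSMUSG00000000628, chromosome 6, 82725025 to 82774454 on GRCm38, minus strand) encodes hexokinase 2, the insulin-responsive hexokinase of muscle. Its CPM was 185 at the lowest, 255 at the median and 298 at the highest in AL mice, 318, 343, 330 and 305 in LS1 to LS4, and 293, 320 and 395 in Ctrl mice. Every AL mouse was below every LS mouse, and 7 of 9 were below every Ctrl mouse. The log2FC was -0.30 (SE 0.0876, FDR = 0.0161) against Ctrl and -0.32 (SE 0.103, FDR = 0.0314) against LS mice, and the latter call was lost without LS1 (FDR = 0.0583), LS2 (0.0961) or LS3 (0.0751). In run 1 alone the value against Ctrl mice was -0.27 (FDR = 0.0716). Hk1, the more widely expressed hexokinase, had a log2FC of -0.01 and -0.19 and did not pass. The transporter genes Slc2a4 (GLUT4, 96.4 RPKM) and Slc2a1 (GLUT1, 2.94 RPKM) and Txnip had log2FC between -0.03 and 0.28 against Ctrl and between -0.04 and 0.33 against LS mice, and 0 of the 3 passed. Txnip separated the runs rather than the groups, with 468 to 1040 CPM in AL and 891 to 1141 CPM in Ctrl mice of run 1, and 280 to 442 CPM in AL and 200 to 281 CPM in Ctrl mice of run 2.

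Upper glycolysis held 5 of the 14 genes that differed between AL and Ctrl mice. Of its 10 genes, 3 were higher and 2 lower, beside 10.7% and 15.4% of all genes. Pfkm (ENSMUSG00000033065, chromosome 15, 98092589 to 98132451, plus strand), the main phosphofructokinase of the heart, had 714, 804 and 1080 CPM as lowest, median and highest value in AL mice. It had 986, 1019, 1011 and 945 CPM in LS1 to LS4, and 915, 994 and 1201 CPM in Ctrl mice. Of the AL mice, 8 of 9 were below every LS mouse and every Ctrl mouse, and the other, AL8, was among the Ctrl values. Pfkm had a log2FC of -0.26 (SE 0.0702, FDR = 0.0118) against Ctrl and of -0.29 (SE 0.0828, FDR = 0.0173) against LS mice, where the FDR was 0.0531 without LS2.

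The platelet-type phosphofructokinase Pfkp went the other way. Its CPM was 48.3, 82.5 and 116 (lowest, median and highest) in AL mice, 50.4, 70.7, 68.6 and 53.5 in LS1 to LS4 and 49.8, 51.9 and 64.7 in Ctrl mice. In 6 of 9 AL mice it was above every Ctrl mouse, while AL3, AL4 and AL5 were at Ctrl levels. The log2FC was 0.54 (SE 0.157, FDR = 0.0162) against Ctrl and 0.37 (FDR = 0.165, not passed) against LS mice, and in run 1 alone 0.50 (FDR = 0.0897) against Ctrl mice. The AL mice with the highest Pfkp, AL7, AL6 and AL9, had 639, 545 and 826 CPM of summed macrophage markers (Ctrl mice 252 to 535 CPM, LS mice 377 to 441 CPM) and AL9 the high fibroblast sum, and the part of these cells in the difference was not tested. Of the macrophage markers 2 of 11, Lyz2 and C1qb, and of the fibroblast markers 0 of 9 passed between AL and Ctrl mice. Pfkl, the liver-type gene, had a log2FC of 0.09 and 0.24 and did not pass.

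Pfkfb1 (ENSMUSG00000025271, chromosome X, 150588229 to 150643878, plus strand), which encodes the liver and muscle form of the enzyme that makes and degrades fructose 2,6-bisphosphate, showed the largest fall against Ctrl mice among the genes of glycolysis. In run 1 it had 4.73 to 7.89 CPM in AL mice and 9.54 to 18.5 CPM in Ctrl mice, and in run 2 it had 17.3 and 10.2 CPM in AL8 and AL9 and 26.8 to 29.4 CPM in Ctrl mice. The groups did not overlap within either run, although the runs differed in level. The log2FC was -1.04 (SE 0.167, FDR = 0.000384) against Ctrl mice, with -1.03 in run 1 (FDR = 0.00412) and -1.03 in run 2 (FDR = 0.0369) when each run had its own estimate. LS mice had 7.56, 5.6, 6.34 and 11.6 CPM, of which LS4 lay within the run 1 Ctrl range and the others below it, and the log2FC was -0.33 (FDR = 0.239) in AL against LS and -0.71 (SE 0.219, FDR = 0.692) in LS against Ctrl mice. Neither passed, so Pfkfb1 was not shown to differ between LS mice and either group. Pfkfb2, the heart form, had a log2FC of 0.34 (FDR = 0.0787) and 0.41 (FDR = 0.0785), and Pfkfb3 of -0.34 and 0.22, and neither passed.

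The remaining genes of this stretch rose little or not at all. Gpi1, which interconverts glucose 6-phosphate and fructose 6-phosphate, had 429 to 618 CPM in AL and 427 to 537 CPM in Ctrl mice, ranges that overlap, and a log2FC of 0.19 (SE 0.0581, FDR = 0.022), or 0.13 in run 1 alone (FDR = 0.101). Aldoa rose by 0.19 on the log2 scale (SE 0.0641, FDR = 0.0321), from 1791 ± 171 CPM (SD, n = 7) in Ctrl to 2018 ± 109 CPM (SD, n = 9) in AL mice. The call of Aldoa was lost without AL2, AL4, AL7, Ctrl2, Ctrl3, Ctrl4 or Ctrl6, with an FDR between 0.0505 and 0.0821. Against LS mice Gpi1 and Aldoa had log2FC of 0.10 and 0.08 and did not pass. The second Aldoa entry held 0 to 5 counts in a mouse and was not tested. Tpi1 had log2FC of 0.05 and -0.04. Aldoc had 0 to 15 counts and passed in neither contrast.

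In lower glycolysis 2 of 7 genes, Eno1 and Pgam1, were higher in AL than in Ctrl mice and 0 were lower, beside 10.7% and 15.4% of all genes. These are widely expressed isozymes, and the muscle isozymes Eno3 and Pgam2 did not pass. A difference between the isozymes was not shown, since neither ratio passed against Ctrl mice. The adjusted p was 0.0708 for Eno1 to Eno3 and 0.365 for Pgam1 to Pgam2 (exact permutation test, described below). Eno1 (ENSMUSG00000063524, chromosome 4, 150236721 to 150248879, plus strand), the widely expressed enolase, had 116, 147 and 157 CPM (lowest, median and highest) in AL mice, 129, 120, 153 and 122 CPM in LS1 to LS4 and 74.9, 112 and 145 CPM in Ctrl mice. In run 1 the AL mice (137 to 151 CPM) were all above the Ctrl mice (97 to 115 CPM), and in run 2 the groups overlapped. Its log2FC was 0.37 (SE 0.106, FDR = 0.0149) against Ctrl and 0.13 (FDR = 0.486) against LS mice. Reads of Eno1 and of its retrogene copy Eno1b could be divided between the entries by Salmon, and with the counts of both summed the log2FC against Ctrl mice was 0.30 (SE 0.0875, FDR = 0.0179). Eno3 had log2FC of 0.02 and -0.08.

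Pgam1, the widely expressed phosphoglycerate mutase, had a log2FC of 0.43 (SE 0.156, FDR = 0.0466) against Ctrl and of 0.38 (FDR = 0.151) against LS mice. Its CPM was 53.9, 81.3 and 114 (lowest, median and highest) in AL and 36.8, 51.9 and 85.8 in Ctrl mice, with 4 of 9 AL mice above every Ctrl mouse. The call was lost without any 1 of 14 mice (AL1, AL2, AL6, AL7, AL9, all LS mice, Ctrl1 and Ctrl4 to Ctrl7), with an FDR between 0.0512 and 0.135. It was also lost in run 1 alone (log2FC 0.23, FDR = 0.313) and with Xist as a covariate (log2FC 0.40, FDR = 0.098). Pgam2 had log2FC of 0.11 and 0.16. Gapdh (log2FC 0.13 and 0.03) and Pgk1 (0.02 and -0.20) did not pass. Pkm, which encodes the muscle pyruvate kinases, was below every LS mouse in 9 of 9 AL mice, with a log2FC of -0.19 (SE 0.0692, FDR = 0.058) that did not pass, and of -0.12 (FDR = 0.142) against Ctrl mice. Gapdh, Pgam1, Ldha and Aldoa have processed copies elsewhere in the genome, so that reads shared with such copies leave their counts uncertain.

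Of the lactate genes, Slc16a1 was lower in AL than in LS mice. It encodes MCT1, the transporter through which the heart takes up lactate. Its CPM was 225, 234, 271, 240, 289, 257 and 273 in AL1 to AL7, 164 and 153 in AL8 and AL9 and 342, 309, 321 and 318 in LS1 to LS4. All 9 AL mice lay below the 4 LS mice. The log2FC was -0.38 (SE 0.0874, FDR = 0.00523). Ctrl mice had 190, 248 and 308 CPM (lowest, median and highest), so they too all lay below the LS mice. The log2FC of LS against Ctrl mice was 0.17 (FDR = 0.857), which did not pass. For AL against Ctrl mice it was -0.20 (SE 0.0759, FDR = 0.0556), which did not pass either. Within the runs the AL against Ctrl value was -0.08 (FDR = 0.56) in run 1 and -0.45 (FDR = 0.0471) in run 2. Ldha, the muscle-type subunit of lactate dehydrogenase, had a log2FC of 0.23 (FDR = 0.0638) and 0.18 (FDR = 0.242), and Ldhb of -0.19 (FDR = 0.088) and -0.23 (FDR = 0.078).

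**Figure D3:**
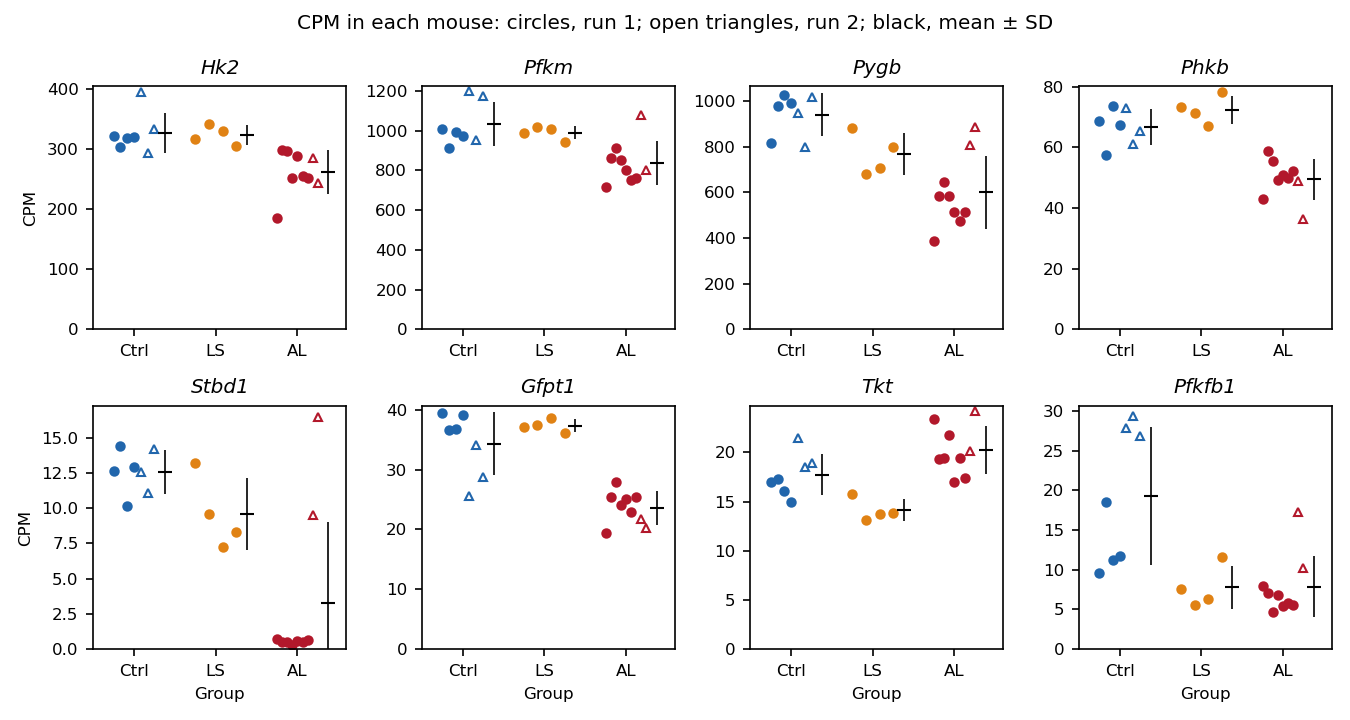
CPM in each mouse of the 7 genes that passed in both contrasts and of Pfkfb1, with filled circles for run 1, open triangles for run 2, and the group mean with 1 SD in black (the SD of Stbd1 in AL mice is cut at 0). Phkb in AL mice (36.2 to 58.9 CPM) lies below all LS mice, Stbd1 is under 1 CPM in the 7 AL mice of run 1 and at 9.48 and 16.4 CPM in the 2 of run 2, and Pfkfb1 differs in level between the runs.

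Of the 11 glycogen genes, Pygb, Phkb and Stbd1 were lower in AL than in Ctrl mice (27.3% beside 15.4% of all genes), and these and Pygm were lower in AL than in LS mice (36.4% beside 13.6%), while 0 were higher in either. The call of Pygm did not hold when its entries were summed. The genes Gys1 (glycogen synthase), Gyg (glycogenin) and Ugp2 had log2FC between -0.05 and 0.14 against Ctrl and between -0.12 and 0.01 against LS mice and did not pass. The branching enzyme gene Gbe1 had log2FC of -0.22 (FDR = 0.0662) and -0.23 (FDR = 0.106). Ugp2 was at 321 to 496 CPM in AL mice of run 1 and at 217 and 142 CPM in AL8 and AL9.

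Pygb (ENSMUSG00000033059, chromosome 2, 150786735 to 150831758, plus strand) encodes the brain-type glycogen phosphorylase, which the heart expresses along with the muscle type. Its CPM was 387, 582, 644, 584, 516, 476 and 515 in AL1 to AL7 and 808 and 888 in AL8 and AL9. It was 882, 681, 707 and 799 in LS1 to LS4 and 799, 978 and 1029 (lowest, median and highest) in Ctrl mice. The 7 AL mice of run 1 were below every LS and every Ctrl mouse, and the 2 of run 2 were within the Ctrl range. The log2FC was -0.62 (SE 0.12, FDR = 0.00138) against Ctrl and -0.45 (SE 0.144, FDR = 0.0321) against LS mice, where the call was lost without AL5, AL6, LS1 or LS4 (FDR 0.0524 to 0.105). Within the runs it was -0.84 (FDR = 0.00142) in run 1 and -0.12 (FDR = 0.695) in run 2, and the difference between the runs, 0.72, had an unadjusted p of 0.00392 and an FDR of 0.12.

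Pygm (ENSMUSG00000032648, chromosome 19, 6384399 to 6398459, plus strand), the muscle glycogen phosphorylase, is listed under 2 identifiers with nearly the same counts, and Salmon could have divided its reads between the entries. This entry had a log2FC of -0.23 (SE 0.0819, FDR = 0.0496) against LS mice and the second one, ENSMUSG00000106877, of -0.21 (FDR = 0.108). Summed, the log2FC was -0.22 (FDR = 0.0723), so the call did not hold for the gene. Against Ctrl mice the values were -0.17 (FDR = 0.0762) and -0.17 (FDR = 0.119).

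Phkb (ENSMUSG00000036879, chromosome 8, 85840959 to 86061376, plus strand) encodes the regulatory β subunit of phosphorylase kinase, which activates glycogen phosphorylase. Its CPM was 42.9, 58.9, 55.7, 49.2, 50.8, 49.9, 52.3, 49 and 36.2 in AL1 to AL9 and 73.4, 71.3, 67.1 and 78.2 in LS1 to LS4. Ctrl mice had 57.5, 67.5 and 73.8 CPM (lowest, median and highest). All AL mice lay below all LS mice, and AL2 alone overlapped with the Ctrl mice, by Ctrl2. The log2FC was -0.46 (SE 0.0814, FDR = 0.000718) against Ctrl and -0.53 (SE 0.0934, FDR = 0.00104) against LS mice, and Phkb passed in each run, at -0.37 (FDR = 0.0253) and -0.64 (FDR = 0.0238). The subunit genes Phka1 (log2FC 0.27 and 0.28) and Phkg1 (-0.26 and -0.18) did not pass, nor did Ppp1r3c (-0.16 and -0.11), which targets protein phosphatase 1 to glycogen.

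Stbd1 (ENSMUSG00000047963, chromosome 5, 92603041 to 92606579, plus strand) encodes starch-binding domain protein 1, which binds glycogen and ties it to membranes. It had the largest change of the 43 genes and split the AL mice by run. AL1 to AL7 had 0.711, 0.503, 0.473, 0.3, 0.544, 0.523 and 0.664 CPM, which were 16 to 45 counts, while AL8 and AL9 had 9.48 and 16.4 CPM. LS1 to LS4 had 13.2, 9.57, 7.27 and 8.28 CPM, and the Ctrl mice 10.1, 12.6 and 14.4 CPM as lowest, median and highest value. The 7 AL mice of run 1 were thus far under every other mouse, and the 2 AL mice of run 2 were at the level of LS and Ctrl mice. The log2FC was -3.15 (SE 0.553, FDR = 0.000695) against Ctrl and -3.41 (SE 0.646, FDR = 0.00147) against LS mice, values that average over the split. In run 1 it was -4.55 (FDR = 2.03e-09), in run 2 it was 0.04 (FDR = 0.933), and the difference between the runs was 4.59 (SE 0.33, FDR = 2.46e-06). All 4 LS mice of run 1 and all 4 Ctrl mice of run 1 had 7.27 CPM or more, so the low level was not shared by the run as a whole.

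The hexosamine branch showed the lowest FDR of all members. Gfpt1 (ENSMUSG00000029992, chromosome 6, 87042846 to 87092197, plus strand) encodes the rate-limiting enzyme of this branch. Its CPM was 19.4, 25.5, 28, 24.1, 25.1, 23, 25.4, 21.7 and 20.3 in AL1 to AL9 and 37.1, 37.5, 38.7 and 36.1 in LS1 to LS4. In Ctrl mice it was 39.6, 36.7, 36.8 and 39.1 in run 1 and 25.6, 34.1 and 28.8 in run 2. AL mice were below all LS mice and, within each run, below all Ctrl mice. The log2FC was -0.60 (SE 0.0694, FDR = 6.43e-05) against Ctrl and -0.60 (SE 0.0805, FDR = 0.000312) against LS mice, and it was -0.64 (FDR = 0.00142) in run 1 and -0.49 (FDR = 0.0455) in run 2. Its paralog Gfpt2 varied from 10.4 to 46.9 CPM among AL and from 12.1 to 71.5 CPM among Ctrl mice, with log2FC of -0.17 and 0.12 that did not pass. Ogt, which attaches the amino sugar to proteins, had log2FC of 0.06 and 0.18 and did not pass.

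In the pentose phosphate pathway 2 of 4 genes were higher in AL than in Ctrl mice, beside 10.7% of all genes, and 0 were lower. Tkt (ENSMUSG00000021957, chromosome 14, 30548359 to 30574720, plus strand), transketolase, links the pathway back to glycolysis. Its CPM was 17, 19.5 and 24.2 (lowest, median and highest) in AL mice, 15.8, 13.1, 13.8 and 13.9 in LS1 to LS4 and 15, 17.3 and 21.5 in Ctrl mice. Every AL mouse was above every LS mouse, while 3 of 9 were above every Ctrl mouse. The log2FC was 0.47 (SE 0.0858, FDR = 0.00124) against LS and 0.24 (SE 0.0724, FDR = 0.0197) against Ctrl mice, where the FDR was 0.058 without Ctrl4. G6pdx, the first and NADPH-yielding enzyme, had 6.97 to 11.4 CPM in AL and 5.78 to 7.68 CPM in Ctrl mice, with 7 of 9 AL mice above every Ctrl mouse and a log2FC of 0.32 (SE 0.109, FDR = 0.0375). The call was lost without AL1, AL2, AL9, Ctrl2, Ctrl4, Ctrl6 or Ctrl7 (FDR 0.0508 to 0.0908). It was also lost in run 1 alone (log2FC 0.24, FDR = 0.134) and with Xist as a covariate (log2FC 0.28, FDR = 0.0797). Its highest value, 11.4 CPM, was that of AL9, the mouse with the high fibroblast sum, and that part was not tested. Against LS mice G6pdx had a log2FC of 0.24 (FDR = 0.192). Pgd had log2FC of 0.12 and 0.05, Taldo1 of 0.12 and 0.05, and neither passed.

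The 2 sequencing runs were then compared in a fit with a separate AL effect in each, on the 7 AL and 4 Ctrl mice of run 1 and the 2 AL and 3 Ctrl mice of run 2, in which 42 genes could be tested and Aldoc could not. Of these, 30 had the same sign in both runs, and the share of all genes that did so was not computed. In run 1, 6 passed (Pfkfb1, Eno1, Pygb, Phkb, Stbd1 and Gfpt1), which is 14.3% beside 12.7% of all genes, and in run 2, 4 passed (Pfkfb1, Slc16a1, Phkb and Gfpt1), or 9.52% beside 9.33%. Pfkfb1, Phkb and Gfpt1 were lower in AL mice in both. The difference between the runs itself passed for 1 gene, Stbd1 (2.38% of the genes beside 0.701% of all genes). With DESeq2 it passed for 2 genes, and without AL8 for 5, where AL9, the 1 AL mouse left in run 2, is assumed to vary like the mice of the other groups. An unadjusted p under 0.05 for that difference was found for 6 genes, which were Hk1, Txnip, Slc16a1, Pygb, Ugp2 and Stbd1. The share of all genes at that p was not computed, so the count is not a result about the members. For Hk1 the log2FC was -0.19 in run 1 and 0.39 in run 2, for Txnip -0.20 and 0.66, and for Ugp2 0.18 and -0.54, none of them passing within a run. With 2 AL mice in run 2, one of which had the shallowest library and the other the high fibroblast sum, a change that passed in run 1 and not in run 2 was shown to differ between them for Stbd1 alone. In a fit of run 1 alone 12 of the members passed against Ctrl mice, beside 3654 of all 14288 genes tested there. Hk2, Gpi1, Pfkp, Pgam1 and G6pdx were lost and Pfkfb2, Gyg and Pygm gained.

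**Figure D4:**
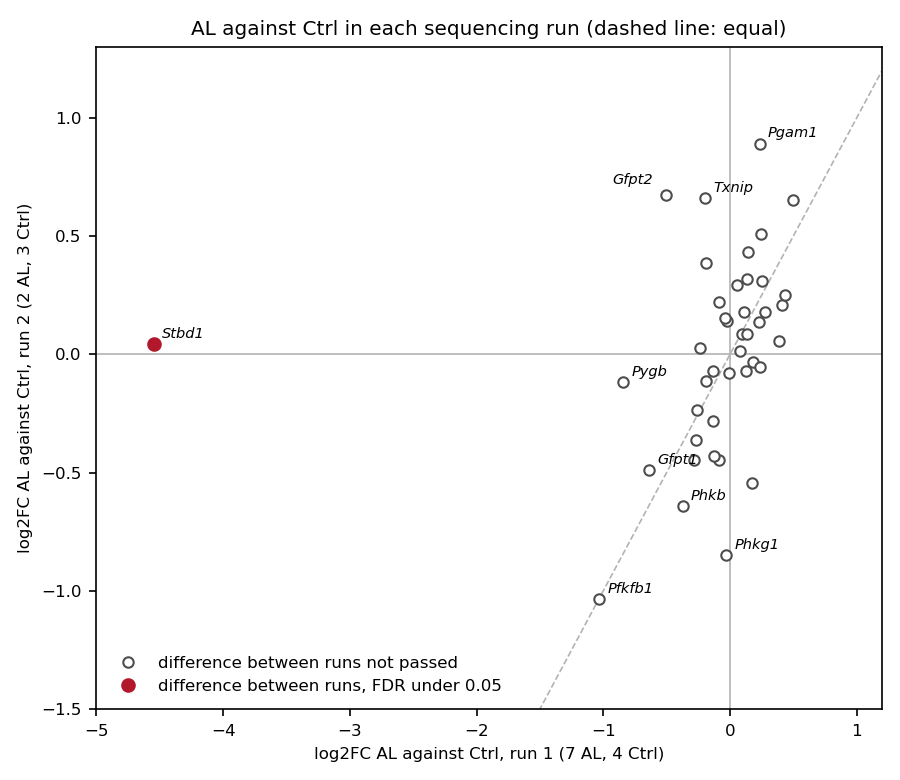
log2FC of AL against Ctrl mice in run 1 (x axis) and in run 2 (y axis) for the 42 genes tested in both, with the line of equal values dashed and the filled point for the gene whose difference between runs passed. Pfkfb1 lies on the line at -1.03 in both, Gfpt1 and Phkb lie below 0 in both, and Stbd1 stands alone at -4.55 in run 1 and 0.04 in run 2.

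Since many steps have several isozyme genes, the log2 ratio of 11 pairs of genes was compared between groups. A ratio within a library does not depend on its scaling, and it was tested by a two-sided exact permutation test over mice, within run for AL against Ctrl mice (3300 arrangements) and in run 1 alone for AL against LS mice (330 arrangements). P-values were adjusted over all 33 tests of ratios and contrasts. Of these 9 passed, all at an adjusted p of 0.0444, and none of the 11 between LS and Ctrl mice, where the 70 arrangements cannot give a p under 0.0286. Because they passed at 1 shared value close to the threshold, they were lost together, and 0 passed when AL and Ctrl mice were compared in run 1 alone.

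Ratios moved toward the less muscle-restricted phosphofructokinases and toward Ldha in AL mice. The log2 ratio of Pfkl to Pfkm was higher by 0.36 against Ctrl mice (p = 0.00333, exact permutation test). It was higher by 0.53 against LS mice (p = 0.00606, exact permutation test). In this ratio 6 of 9 AL mice were above every Ctrl mouse, and 7 of 7 AL mice of run 1 were above every LS mouse. Counted per length, Pfkl made up 7.7% ± 1.16 (SD, n = 9) of the Pfkl and Pfkm total in AL mice, 5.59% ± 0.459 (SD, n = 4) in LS mice and 5.94% ± 0.681 (SD, n = 7) in Ctrl mice, so that Pfkm remained the main form. Pfkp to Pfkm was higher by 0.77 against Ctrl mice (p = 0.00515, exact permutation test) and by 0.60 against LS mice (adjusted p = 0.181, exact permutation test). Ldha to Ldhb was higher by 0.43 against Ctrl (p = 0.00788, exact permutation test) and by 0.35 against LS mice (p = 0.0121, exact permutation test), and Ldha made up 21.8% ± 3.1 (SD, n = 9) of the per-length total in AL mice, 18% ± 1.22 (SD, n = 4) in LS mice and 16.7% ± 3.41 (SD, n = 7) in Ctrl mice. AL8 had the lowest ratio of the AL mice for both Pfkl to Pfkm and Ldha to Ldhb.

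The ratio of Pygb to Pygm was lower in AL mice by 0.44 against Ctrl (p = 0.00455, exact permutation test) and by 0.32 against LS mice (p = 0.00909, exact permutation test). In 8 of 9 AL mice it was below every Ctrl mouse, and in AL9 it was above them all. Per length, Pygb made up 34.7% ± 4.87 (SD, n = 9) of the total of Pygb and both Pygm entries in AL, 37.9% ± 3.83 (SD, n = 4) in LS and 42.3% ± 2.79 (SD, n = 7) in Ctrl mice. Pfkfb3 to Pfkfb2 was lower by 0.61 against Ctrl mice (p = 0.0121, exact permutation test), and Aldoc to Aldoa was higher by 0.74 against LS mice (p = 0.0121, exact permutation test), the latter resting on 2 to 15 counts of Aldoc in a mouse of run 1. For Slc2a1 to Slc2a4, Hk1 to Hk2, Pgam1 to Pgam2, Eno1 to Eno3 and Gfpt2 to Gfpt1, the adjusted p lay between 0.0708 and 0.525 against Ctrl mice.

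**Figure D5:**
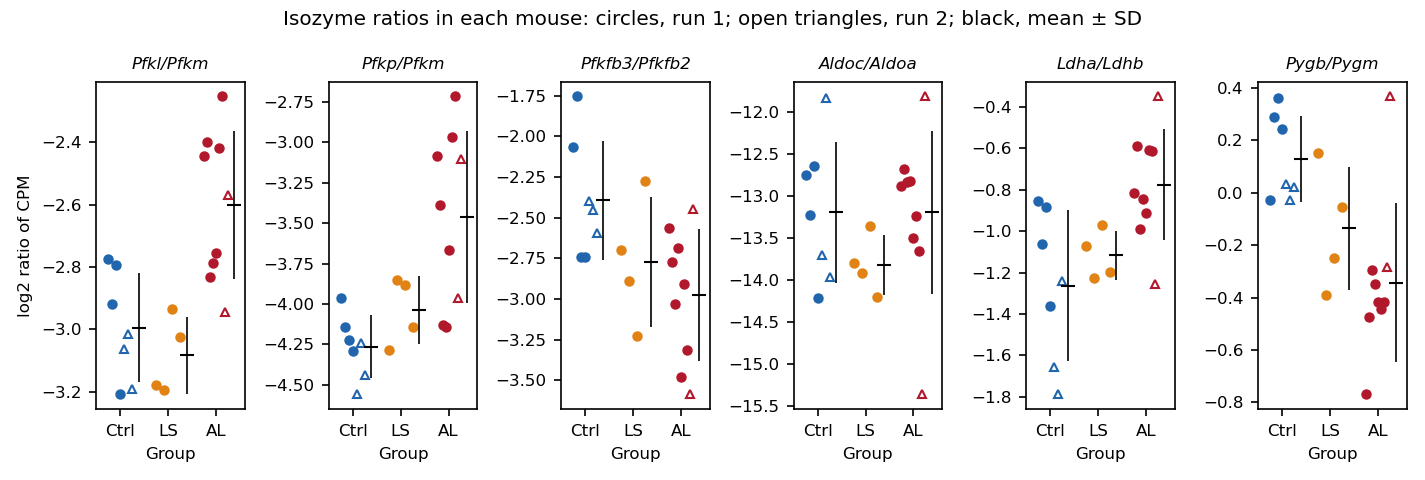
log2 ratio of CPM of the 6 isozyme pairs that passed in a contrast, in each mouse, with filled circles for run 1, open triangles for run 2 and the group mean with 1 SD in black. All 7 AL mice of run 1 are above the 4 LS mice in Pfkl to Pfkm, 8 of 9 AL mice are below every Ctrl mouse in Pygb to Pygm, and AL8 or AL9 stands apart from the other AL mice in several panels.

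Around these genes, 70 further genes of the same pathways were looked at, 69 of them tested. Between AL and Ctrl mice 7 were higher (10.1% beside 10.7% of all genes) and 17 lower (24.6% beside 15.4%). Between AL and LS mice 6 were higher (8.7% beside 9.78%) and 9 lower (13% beside 13.6%), and between LS and Ctrl mice 0 passed. The median log2FC was -0.04 in both contrasts with AL mice. Of the 10 with the lowest FDR against Ctrl mice, 8 are described here. Phkg2, the liver-type catalytic subunit of phosphorylase kinase, rose by 0.34 on the log2 scale (FDR = 0.00306) and by 0.39 against LS mice (FDR = 0.0039). Gsk3b, a kinase that inhibits glycogen synthase, fell by 0.43 (FDR = 0.000612) and by 0.40 (FDR = 0.00333).

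Oga, which removes the sugar that OGT adds, fell by 0.38 on the log2 scale against Ctrl (FDR = 0.00126) and by 0.41 against LS mice (FDR = 0.00265). Mlxipl, which encodes the glucose-sensing transcription factor ChREBP, rose by 0.79 (SE 0.158, FDR = 0.0017) and by 0.95 (SE 0.191, FDR = 0.00204), with 9.89 to 34.5 CPM in AL, 6.34 to 11.2 CPM in LS and 7.4 to 23 CPM in Ctrl mice, ranges that overlap with both. Ppargc1a, a coactivator of oxidative metabolism, fell by 0.51 (FDR = 0.0119) and by 0.93 (SE 0.156, FDR = 0.000709). All AL mice (56.2 to 145 CPM) were below all LS mice (151 to 243 CPM), and Ctrl mice (106 to 180 CPM) overlapped with both. Ldhd fell by 0.45 (FDR = 0.00229), Pgm5 by 0.39 (FDR = 0.00888), and Pck2 rose by 0.62 (FDR = 0.0101). Liver genes were uneven among the mice, with a sum of 26 liver genes of 230 to 438 CPM in Ctrl1, Ctrl3 and Ctrl4, 296 and 267 CPM in LS1 and LS3 and at most 69.9 CPM in the other mice. Of the 26, 25 passed as lower in AL than in Ctrl mice. With the mean log2 CPM of these 26 genes as a covariate, 12 of the 43 genes passed against Ctrl mice, beside 2520 of all 14477 genes. Against LS mice 9 passed, beside 2601 of all genes. Tkt (log2FC 0.24), Aldoa (0.16), Pfkm (-0.26), Gpi1 (0.20) and Eno1 (0.38) no longer passed against Ctrl mice (FDR 0.0625 to 0.198), with fold changes close to those without the covariate, and Gbe1, Ldha and Pgd passed instead. Pygb (-0.32, FDR = 0.179) and Pygm (-0.25, FDR = 0.0795) no longer passed against LS mice and Gbe1 and Pgam1 did, while Stbd1, Gfpt1 and Phkb passed against both and Pfkfb1 against Ctrl mice.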

How the data were processed

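Heart apex RNA from 20 mice was sequenced in 2 runs as stranded, paired-end mRNA libraries. According to the study's methods and the submitters' processing notes, the authors aligned reads to GRCm38 with STAR inside the nf-core/rnaseq pipeline and quantified genes with Salmon, and the deposited table holds Salmon estimated counts per gene, not scaled to library size and not adjusted for the run. Of the values, 14.2% were not whole. Reads of near-identical genes are divided between entries by Salmon. Totals were at most 62668146 counts in a mouse, and the shallower run 2 gives less precise values.

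Groups were taken from the labels. The estimated counts were rounded, genes with low counts were removed (edgeR filterByExpr, minimum count 10), libraries were scaled by TMM, and the 3 groups were compared by edgeR quasi-likelihood tests with group and run as terms and Benjamini-Hochberg adjustment over all 14477 genes tested. Isozyme ratios used log2 CPM with a prior count of 2 and exact permutation tests over mice. The scripts were tested on simulated data. P-values set the difference between groups against the spread between the mice of these groups. Genes were given with full values where they passed in a contrast or belonged to an isozyme pair that passed, and members under the threshold by their fold changes. The values of 2 of the further pathway genes are not reported here. Members, lists and tests were chosen with earlier results of these data known. Alternatives were the filter, the scaling, DESeq2, ComBat-seq, the run term, run 1 alone, covariates for Xist and for liver genes, a replicate block and leaving out each mouse. Summing entries that share reads and reading the effect of run 2 from the interaction fit were added after seeing the data. R 4.3.3, edgeR 4.0.16, limma 3.58.1, DESeq2 1.42.0, sva 3.50.0, Python 3.11.15 and matplotlib 3.10.9 were used.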

Additional observations from a re-analysis of the deposited data

Results flagged for a closer look

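In 11 of 132 sets of CPM values (1 gene in 1 group of mice), 1 mouse lay far from the rest, which chance alone does in about 1 of 20 sets. AL8 accounted for 4 of them. Its values of Ldhb (1420 CPM, the next highest AL mouse at 1121), Pygm (ENSMUSG00000032648, 491 CPM, next 404) and Pfkfb1 (17.3 CPM, next 10.2) were above and its Eno1 (116 CPM, next lowest 137) below those of the other AL mice. AL8 belongs to run 2, of which AL9 is the other AL mouse. Gyg was lowest in AL9 (95.5 CPM, next 147), and Hk2 was lowest in AL1 (185 CPM, next 244). Among Ctrl mice, Hk2 stood out in Ctrl5 (395 CPM, next 335), Pfkp in Ctrl1 (64.7 CPM, next 54), Gfpt2 in Ctrl4 (71.5 CPM, next 33.8) and Eno3, on the low side, in Ctrl6 (827 CPM, next 1086). Among LS mice, Ogt was low in LS1 (108 CPM, next 121).

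The fold change of Stbd1 in AL against Ctrl mice differed between the runs by 4.59 on the log2 scale (run 2 minus run 1) in a test of the difference itself, with AL1 to AL7 under every other mouse and AL8 and AL9 at the level of LS and Ctrl mice.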

How the results depend on the processing

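Of the members, 14 passed in AL against Ctrl and 9 in AL against LS mice. Numbers of all genes that passed follow in brackets (here 3792 and 3382). With ComBat-seq the counts were 4 and 2 (777 and 642), and without a run term 8 and 4 (2183 and 2368). Leaving out each mouse in turn gave 11 to 17 (3004 to 4110) and 6 to 11 (2256 to 3895). DESeq2 gave 17 and 12 (4437 and 4175), and run 1 alone 12 and 13 (3654 and 4641). No filter gave 11 and 8 (3547 and 3104), and Xist as a covariate 12 and 8 (3344 and 3287). LS against Ctrl stayed at 0. A replicate block gave 8 and 7 (2157 and 3099 of all genes), but same-numbered mice shared only a number (correlations of -0.154 to 0.231, over 0.1 in 3 of 15 pairs). The difference between runs, passed by 1 gene, was passed by 2 with DESeq2 and by 1 to 5 with a mouse left out (5 without AL8, when AL9 is the 1 AL mouse of run 2 and is assumed to vary like the other groups). The 9 isozyme ratios fell to 0 in run 1 alone, to 0 with ComBat-seq counts pooled over runs, and to between 0 and 9 with a mouse left out, where fewer arrangements raise the smallest p. Of 939 alternative values for 33 single results, 276 lost the call and 0 changed sign. Gfpt1 in both contrasts and Pfkfb1 and Pygb against Ctrl mice passed in all 31 alternatives. Stbd1 lost its call without a run term alone (FDR = 0.0524 against Ctrl, 0.137 against LS), and Phkb (0.167 and 0.13) and Slc16a1 (0.224, against LS) with ComBat-seq alone. Pgam1 lost it in 20, G6pdx in 13, Aldoa in 12 and Pygm in 26. Except where stated, the cause was not tested. The 2 AL libraries of run 2 and 4 LS mice limit the precision.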

Other observations

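Across the 14477 genes tested, 218 had all 7 AL mice of run 1 on one side of the other 13 mice, and for 2 of them the gap was over 2 log2 units. One was Stbd1 (gap 3.27) and the other Rbpj-ps3 (ENSMUSG00000079575, chromosome 6, 46529354 to 46530794), a pseudogene (gap 3.51). Rbpj-ps3 was at 0.0474 to 0.152 CPM in AL1 to AL7, at 2.25 and 4.82 CPM in AL8 and AL9, at 2.6 to 5.39 CPM in LS mice and at 2.49 to 4.88 CPM in Ctrl mice. The next gene in this order, Apool on chromosome X, had a gap of 1.88. These genes were chosen after their values were seen, and the genotype of single mice at these loci was not analysed here. Of the genes next to Stbd1, Fam47e had 0 to 5 counts and Ccdc158 0 to 19 counts in a mouse.

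Eno1b, the retrogene copy of Eno1, fell into separate levels that crossed the groups. It was at 0.422 to 0.613 CPM in AL1 to AL7, 0.756 CPM in LS1, 0.55 CPM in LS3, 0.424 CPM in LS4 and 0.295 CPM in Ctrl5. It was at 11.5 and 23.9 CPM in AL8 and AL9, 11.9 CPM in LS2 and 9.41 to 18.1 CPM in the other Ctrl mice. Its log2FC in AL against Ctrl mice was -2.87 (FDR = 0.0251, edgeR).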
